A study of Caenorhabditis elegans with 13 samples.

Results

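Condensin and cohesin are ring-shaped complexes built on SMC (structural maintenance of chromosomes) proteins, and 8 genes that encode their subunits are described here. They were taken by name from the 46170 genes of the expression table, and all 8 were found: *smc-4*, *capg-2*, *hcp-6* and *kle-2* for condensin and *smc-3*, *scc-1*, *scc-3* and *rec-8* for cohesin. The larvae were whole *C. elegans* at the first larval stage (L1), hatched overnight, fed for 3 hours and collected for polyA mRNA-seq with a kit that does not keep strand. The groups were wild type N2 labelled *dpy-27(RNAi)* (4 libraries), strain RB2301 with the *cec-4(ok3124)* allele on control vector RNAi (3 libraries), strain EKM99 with *met-2(n4256) set-25(n5021)*, called the double mutants below, on control vector RNAi (3 libraries) and wild type N2 on control vector RNAi, called the control below (3 libraries). DPY-27 is a subunit of the dosage compensation complex (DCC), CEC-4 is a chromodomain protein that anchors heterochromatin at the nuclear periphery, and MET-2 and SET-25 methylate histone H3 at lysine 9. Each mutant group is 1 strain, and how long the animals or their parents fed on RNAi bacteria is not given for these libraries in the sources used here.

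Condensin compacts chromosomes and cohesin holds sister chromatids together, each through a pair of SMC ATPases closed by a kleisin subunit and joined by HEAT-repeat proteins. *C. elegans* has condensin I and condensin II for mitosis and meiosis and, in addition, the DCC, a condensin that binds the hermaphrodite X chromosomes and differs from condensin I in one SMC protein, DPY-27 in place of SMC-4. MIX-1 is the SMC partner in every one of these condensins. Cohesin exchanges its kleisin: SCC-1 acts in mitosis, and REC-8, COH-3 and COH-4 act in meiosis, which in an L1 larva has not begun. An L1 larva is mostly post-mitotic, with a limited set of dividing blast cells and a pair of primordial germ cells that resume division after feeding.

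The table gives 1 value per gene and group, the authors' mean over libraries in FPKM (reads scaled to gene length and to the mapped reads of a library), which the paper calls RPKM, the name used below. It holds no value per library, so no error, test or replicate check stands beside any number here, and whether a difference exceeds the spread between replicates cannot be told. A ratio is the log2 of 2 group means, each with 0.1 RPKM added, and a gene is called lower or higher when its ratio passes 1.5-fold. The shares of all genes past that limit, among genes with a mean above 1 RPKM in the 2 groups compared, are the background for the members. The library depth behind the means is unknown from the table. In bulk larvae, fewer cells of a type and less RNA per cell cannot be told apart.

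The groups were checked by the genes they target. *cec-4* was at 7.02 RPKM in *cec-4* mutants, against 18.2 RPKM in the control (log2 ratio -1.36), and *set-25* was at 4.15 RPKM in the double mutants, against 8.93 RPKM in the control (-1.09). *met-2* was at 13.7 RPKM in the double mutants and 17.7 RPKM in the control (-0.36), which is not past 1.5-fold. *dpy-27* was at 31.6 RPKM in larvae labelled *dpy-27(RNAi)* and 32.3 RPKM in the control (-0.03), so its mRNA was not lower in larvae with that label. The level of DPY-27 protein is not among the values used here, and the label is taken as given. Of the tissue markers, 5 body wall muscle genes (*unc-54* among them), 5 gut genes (*elt-2*) and 6 neuron genes (*unc-119*) were above 1 RPKM in all 4 groups. Of 6 epidermis genes, 4 were above 1 RPKM in the control and 3 in each other group. The yolk genes *vit-2*, *vit-5* and *vit-6*, made in adults, were below 1 RPKM in all 4 groups. They belong to a list of 8 yolk, sperm and oocyte genes of the adult, of which 3 were above 1 RPKM in each group.

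Of the 8 genes, 7 had their highest mean in the control and their lowest in *cec-4* mutants. The exception was *rec-8*, the meiotic kleisin, which was lowest in the control and highest in the double mutants. The condensin II subunits *hcp-6* and *capg-2* and the mitotic kleisin *scc-1* stood furthest below the control, while *scc-3* and *kle-2* differed least among the groups. No overlap between groups can be examined with 1 mean per group.

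**Figure D1:**
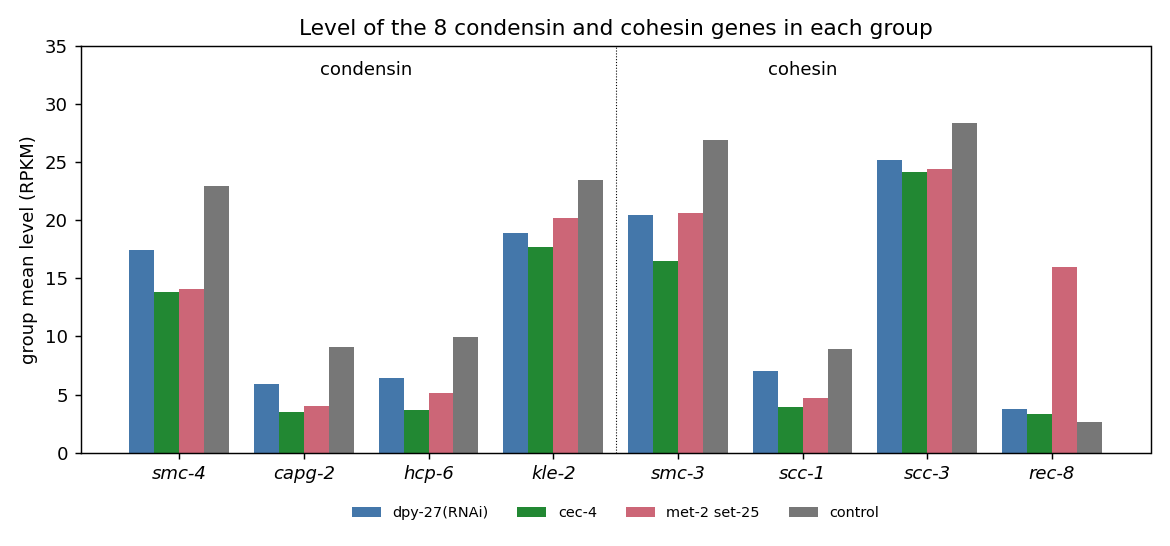
Group mean level (RPKM, linear axis from 0) of the 8 genes, with 1 bar per group and no error bars because only group means were used. The control bar is the tallest for 7 genes, and for *rec-8* the bar of the double mutants (*met-2 set-25*) is the tallest at 16.0 RPKM.

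Among the condensin genes, *hcp-6* (WBGene00001833, chromosome I, 5165148 to 5171313 in WBcel235) encodes a HEAT-repeat subunit of condensin II needed to resolve sister centromeres. Its mean was 6.46 RPKM in larvae labelled *dpy-27(RNAi)*, 3.63 RPKM in *cec-4* mutants and 5.17 RPKM in the double mutants, against 9.99 RPKM in the control. It passed 1.5-fold in every comparison with the control, with log2 ratios of -0.62, -1.44 and -0.94 in the same order, but with a pseudocount of 1 it did not pass in *dpy-27(RNAi)* larvae (-0.56). Of its 5298 exon bases, 39 (0.736%) overlap *spd-5* on the other strand, and reads from both genes cannot be told apart there.

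*capg-2* (WBGene00010093, chromosome V, 12271873 to 12275658), the other HEAT-repeat subunit of condensin II, had the same order of groups. Its mean was 5.90 RPKM in larvae labelled *dpy-27(RNAi)*, 3.47 RPKM in *cec-4* mutants and 3.99 RPKM in the double mutants, against 9.06 RPKM in the control. The log2 ratios were -0.61, -1.36 and -1.16, all past 1.5-fold except in *dpy-27(RNAi)* larvae with a pseudocount of 1 (-0.54). Both subunits lay close together in each group: the level of *capg-2* was 0.913 of that of *hcp-6* in *dpy-27(RNAi)* larvae, 0.955 in *cec-4* mutants, 0.772 in the double mutants and 0.906 in the control.

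*smc-4* (WBGene00004874, chromosome III, 4587501 to 4593124) encodes the SMC protein shared by condensin I and condensin II. Its mean was 17.5 RPKM in larvae labelled *dpy-27(RNAi)*, 13.8 RPKM in *cec-4* mutants and 14.1 RPKM in the double mutants, against 22.9 RPKM in the control. The ratio passed 1.5-fold in *cec-4* mutants (-0.73) and the double mutants (-0.70) and not in *dpy-27(RNAi)* larvae (-0.39). In the double mutants it did not pass when each group was rescaled to the same sum (-0.51).

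*kle-2* (WBGene00016202, chromosome III, 7941717 to 7945593), the kleisin of condensin II, passed 1.5-fold in none of the 3 comparisons. Its mean was 18.9 RPKM in larvae labelled *dpy-27(RNAi)*, 17.7 RPKM in *cec-4* mutants and 20.2 RPKM in the double mutants, against 23.5 RPKM in the control (log2 ratios -0.31, -0.41 and -0.22). Of its exon bases, 52 overlap *gsto-1* on the other strand, a gene at 108 RPKM in *dpy-27(RNAi)* larvae, 46.2 RPKM in *cec-4* mutants, 53.1 RPKM in the double mutants and 60.7 RPKM in the control.

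The subunits of condensin II therefore stood in different proportions in the groups. The level of *hcp-6* was 0.370 of that of *smc-4* in *dpy-27(RNAi)* larvae, 0.263 in *cec-4* mutants and 0.368 in the double mutants, against 0.436 in the control. The level of *kle-2* relative to *smc-4* went the other way, at 1.08 in *dpy-27(RNAi)* larvae, 1.28 in *cec-4* mutants and 1.44 in the double mutants, against 1.02 in the control. These quotients are between per-length levels within a group, so they do not change when a whole group is rescaled.

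Among the cohesin genes, *scc-1* (WBGene00004737, chromosome II, 4698721 to 4700994), the mitotic kleisin that separase cleaves at anaphase, was furthest below the control. Its mean was 7.03 RPKM in larvae labelled *dpy-27(RNAi)*, 3.89 RPKM in *cec-4* mutants and 4.73 RPKM in the double mutants, against 8.91 RPKM in the control. The ratio passed 1.5-fold in *cec-4* mutants (-1.17) and the double mutants (-0.90) and not in *dpy-27(RNAi)* larvae (-0.34).

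*smc-3* (WBGene00004873, chromosome III, 11290904 to 11306247) encodes one of the SMC proteins of cohesin. Its mean was 20.5 RPKM in larvae labelled *dpy-27(RNAi)*, 16.5 RPKM in *cec-4* mutants and 20.6 RPKM in the double mutants, against 26.9 RPKM in the control. Only the ratio in *cec-4* mutants passed 1.5-fold (-0.70, with -0.39 in *dpy-27(RNAi)* larvae and -0.38 in the double mutants).

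*scc-3* (WBGene00004738, chromosome V, 12763945 to 12767933), which encodes the HEAT-repeat subunit that binds the kleisin, had the highest level of the 8 genes in each group and the smallest differences. Its mean was 25.2 RPKM in larvae labelled *dpy-27(RNAi)*, 24.2 RPKM in *cec-4* mutants and 24.4 RPKM in the double mutants, against 28.4 RPKM in the control. The highest of the 4 means was 1.17 times the lowest, against 2.75 times for *hcp-6* and 2.29 times for *scc-1*. The log2 ratios to the control were -0.17, -0.23 and -0.21.

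*rec-8* (WBGene00004333, chromosome IV, 13349122 to 13353193) had a different pattern from the other 7 genes. Its mean was 3.74 RPKM in larvae labelled *dpy-27(RNAi)*, 3.29 RPKM in *cec-4* mutants and 16.0 RPKM in the double mutants, against 2.62 RPKM in the control. The log2 ratios were 0.49 in *dpy-27(RNAi)* larvae and 0.32 in *cec-4* mutants, neither past 1.5-fold, and 2.56 in the double mutants, a 5.91-fold higher mean. In the double mutants, 607 of 16099 genes had a higher ratio. None of the exon bases of *rec-8* is shared with another annotated gene.

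In the order of levels, *rec-8* was last of the 8 genes in *dpy-27(RNAi)* larvae, *cec-4* mutants and the control and the fourth from the top in the double mutants, above *smc-4*. The other genes kept 2 tiers in every group: *scc-3*, *smc-3*, *kle-2* and *smc-4* between 13.8 and 28.4 RPKM, and *hcp-6*, *capg-2* and *scc-1* between 3.47 and 9.99 RPKM. Within a tier neighbours changed places between groups (*kle-2* was above *smc-3* only in *cec-4* mutants), and with no spread known, neighbours this close cannot be ordered.

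In counts, 2 of 8 genes were lower past 1.5-fold in larvae labelled *dpy-27(RNAi)*, against 8.65% of 15942 genes above 1 RPKM, and none was higher, against 14%. With a pseudocount of 1, 0 of 8 were past 1.5-fold in these larvae. In *cec-4* mutants, 5 of 8 were lower, against 11.6% of 16118 genes, and none was higher, against 22.7%. In the double mutants, 4 of 8 were lower, against 16.5% of 16099 genes, and *rec-8* was higher, against 22.2%. Among protein-coding genes alone the shares lower were 5.74%, 9.67% and 14.8% in the same order. With each group rescaled to the same sum, 3 of 8 were lower in the double mutants, without *smc-4*. The background fell too: 1867 of the 16099 genes were lower when rescaled, against 2651 as deposited.

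The median log2 ratio of the 8 genes was -0.36 in *dpy-27(RNAi)* larvae, -0.72 in *cec-4* mutants and -0.54 in the double mutants, and that of all genes above 1 RPKM was 0.04, 0.13 and 0.07. Relative to the median of all genes, the median of the 8 genes was thus -0.41, -0.85 and -0.61. The 4 condensin genes had medians of -0.50, -1.05 and -0.82, and the 4 cohesin genes of -0.25, -0.47 and -0.30, in the same order. The cohesin medians include *rec-8*, which was above the control in each of these comparisons. Among *smc-3*, *scc-1* and *scc-3*, the middle ratios were -0.34 (*scc-1*), -0.70 (*smc-3*) and -0.38 (*smc-3*). All 3 comparisons share the control libraries, so they are not independent of each other.

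The groups were also set against each other without the control. For *cec-4* mutants over *dpy-27(RNAi)* larvae, *hcp-6* (-0.81), *capg-2* (-0.75) and *scc-1* (-0.84) were lower past 1.5-fold, 3 of 8 genes, where 10.3% of 16369 genes were lower, and none was higher, where 14.4% were. For the double mutants over *cec-4* mutants, *rec-8* was higher (2.25), where 12.0% of 16481 genes were higher and 15.8% lower, and the other 7 ratios lay between 0.02 and 0.50. For the double mutants over *dpy-27(RNAi)* larvae, *rec-8* was again the one member past 1.5-fold (2.07), where 14.2% of 16294 genes were higher and 13.3% lower.

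**Figure D2:**
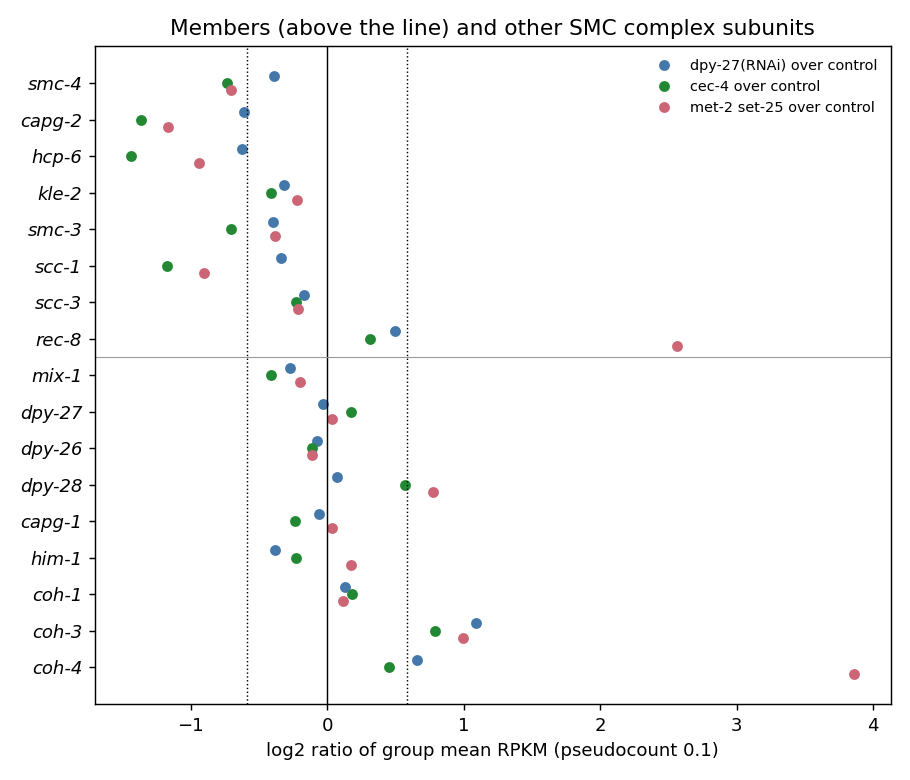
Log2 ratio of each group mean to the control mean (pseudocount 0.1) for the 8 members, above the line, and for other subunits of condensin, the DCC and cohesin, below it; dotted lines mark 1.5-fold. *hcp-6*, *capg-2* and *scc-1* lie furthest to the left in *cec-4* mutants, and *rec-8* (2.56) and *coh-4* (3.86) furthest to the right in the double mutants.

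Of the other condensin subunits, which condensin I and the DCC share apart from DPY-27, none of 5 was lower past 1.5-fold in any of the 3 comparisons with the control. Of all genes above 1 RPKM, 8.65% were lower in *dpy-27(RNAi)* larvae, 11.6% in *cec-4* mutants and 16.5% in the double mutants. For a list of 5 genes, 0 is near that background. *mix-1*, the SMC partner of SMC-4 and DPY-27, was at 21.7 RPKM in *dpy-27(RNAi)* larvae, 19.7 RPKM in *cec-4* mutants and 22.8 RPKM in the double mutants, against 26.2 RPKM in the control. *dpy-28*, the condensin I and DCC counterpart of *hcp-6*, was at 16.6, 23.5 and 27.1 RPKM in the same order, against 15.8 RPKM in the control. Its ratio passed 1.5-fold in the double mutants (0.78) and also in *cec-4* mutants (0.57 as deposited) once the groups were rescaled to the same sum (0.69). The level of *hcp-6* was thus 0.389 of that of *dpy-28* in *dpy-27(RNAi)* larvae, 0.154 in *cec-4* mutants and 0.191 in the double mutants, against 0.633 in the control.

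The other pairs of counterparts differed in the same direction, by less. *capg-2* was at 0.262 of the level of *capg-1* in *dpy-27(RNAi)* larvae, 0.174 in *cec-4* mutants and 0.166 in the double mutants, against 0.387 in the control. *smc-4* was at 0.552, 0.379 and 0.424 of the level of *dpy-27* in the same order, against 0.710 in the control. For the kleisins, *kle-2* was at 0.743, 0.711 and 0.814 of the level of *dpy-26*, against 0.877 in the control. The summed levels of the other condensin subunits and of the condensin members also differed. The summed level of *mix-1*, *dpy-27*, *dpy-26*, *dpy-28* and *capg-1* was 118 RPKM in *dpy-27(RNAi)* larvae, 124 RPKM in *cec-4* mutants and 132 RPKM in the double mutants, against 125 RPKM in the control. That of the 4 condensin members was 48.7, 38.6 and 43.4 RPKM in the same order, against 65.5 RPKM in the control. All of the first list but *dpy-27* serve both condensin I and the DCC, so neither sum can be assigned to 1 complex.

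**Figure D3:**
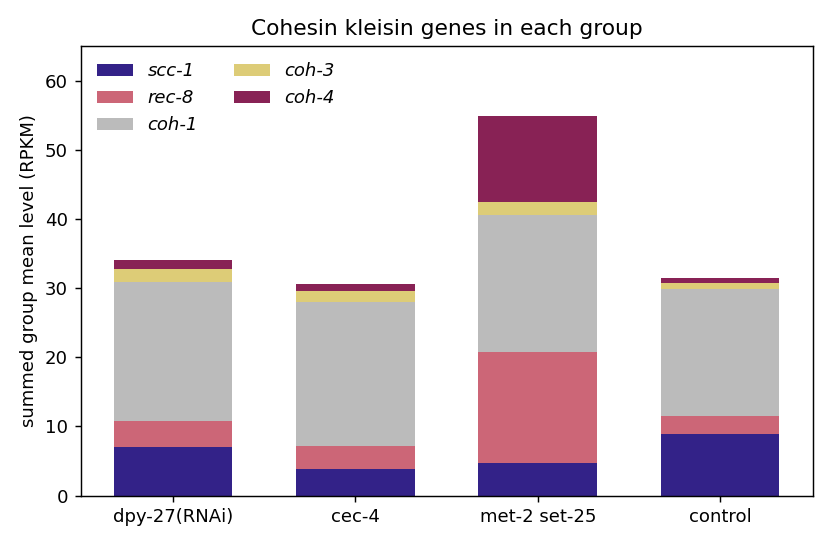
Stacked group mean levels (RPKM, linear axis from 0) of the 5 cohesin kleisin genes in each group, with no error bars. *rec-8* and *coh-4* fill more of the bar of the double mutants (*met-2 set-25*, 54.9 RPKM in all) than of the others.

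The cohesin kleisins differed most in make-up in the double mutants. *coh-4*, a meiotic kleisin, was at 12.5 RPKM in the double mutants and at 1.26 RPKM in *dpy-27(RNAi)* larvae and 1.09 RPKM in *cec-4* mutants, against 0.767 RPKM in the control, a log2 ratio of 3.86 in the double mutants. It shares 15.9% of its exon bases with *Y45G5AM.7* on the same strand, which was at 9.85 RPKM in the double mutants and 12.0 RPKM in the control. *coh-3*, the near copy of *coh-4*, was at 1.97 RPKM in *dpy-27(RNAi)* larvae, 1.58 RPKM in *cec-4* mutants and 1.83 RPKM in the double mutants, against 0.872 RPKM in the control. Reads shared by such copies were split by the authors' software, so their separate values are uncertain.

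Of the summed level of the 5 cohesin kleisins, *rec-8* took 11% in *dpy-27(RNAi)* larvae, 10.8% in *cec-4* mutants and 29.1% in the double mutants, against 8.33% in the control. *scc-1* took 20.6%, 12.7% and 8.60% in the same order, against 28.3% in the control. The level of *rec-8* was 0.532 of that of *scc-1* in *dpy-27(RNAi)* larvae, 0.846 in *cec-4* mutants and 3.39 in the double mutants, against 0.294 in the control, so that the double mutants were the only group in which *rec-8* was above *scc-1*. *coh-1*, a kleisin with roles outside cell division, was between 18.3 and 20.8 RPKM in the 4 groups.

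The SMC and HEAT-repeat subunits of cohesin did not show the excess of *rec-8*. *him-1*, which encodes SMC-1, the partner of SMC-3, was at 41.6 RPKM in *dpy-27(RNAi)* larvae, 46.1 RPKM in *cec-4* mutants and 61.2 RPKM in the double mutants, against 54.1 RPKM in the control, with no ratio to the control past 1.5-fold. Its level was 2.03 times that of *smc-3* in *dpy-27(RNAi)* larvae, 2.80 in *cec-4* mutants and 2.97 in the double mutants, against 2.01 in the control.

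Of 7 genes for loading, releasing and cleaving cohesin, none was past 1.5-fold in *dpy-27(RNAi)* larvae, against 22.7% of genes above 1 RPKM in either direction. In *cec-4* mutants 3 were lower, against 11.6%. In the double mutants 1 was lower, against 16.5%, which for 1 of 7 genes is near that background. *ify-1*, the securin that holds separase inactive, was at 6.81 RPKM in *dpy-27(RNAi)* larvae, 4.85 RPKM in *cec-4* mutants and 4.29 RPKM in the double mutants, against 9.20 RPKM in the control (log2 ratios -0.43, -0.91 and -1.08). *wapl-1*, which releases cohesin from chromatin, had ratios of -0.20, -0.62 and -0.51, and *F08F8.4* (*eco-1*), the counterpart of the yeast cohesin acetyltransferase, of -0.16, -0.63 and -0.37. Rescaled to the same sum, neither *wapl-1* (-0.50) nor *F08F8.4* (-0.51) passed 1.5-fold in *cec-4* mutants.

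The remaining regulators stayed within 1.5-fold of the control. The loader genes *pqn-85* (*scc-2*) and *mau-2* and the *pds-5* gene *evl-14* had log2 ratios between -0.24 and 0.13 in the 3 comparisons, and the signs of *evl-14* in *cec-4* mutants and of *evl-14* and *pqn-85* in the double mutants differ between scalings. *sep-1*, the separase, was at 4.43 RPKM in *dpy-27(RNAi)* larvae, 3.74 RPKM in *cec-4* mutants and 6.88 RPKM in the double mutants, against 5.02 RPKM in the control (-0.18, -0.41 and 0.45), and in the double mutants it passed 1.5-fold only when rescaled (0.64). Of *smc-5*, *smc-6* and *nse-1*, which encode the related complex for DNA repair, none was past 1.5-fold in any of the 3 comparisons. Of all genes above 1 RPKM, 22.7%, 34.3% and 38.6% were past it in either direction, in the same order. A list of 3 genes is too short to be set apart from that background.

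**Figure D4:**
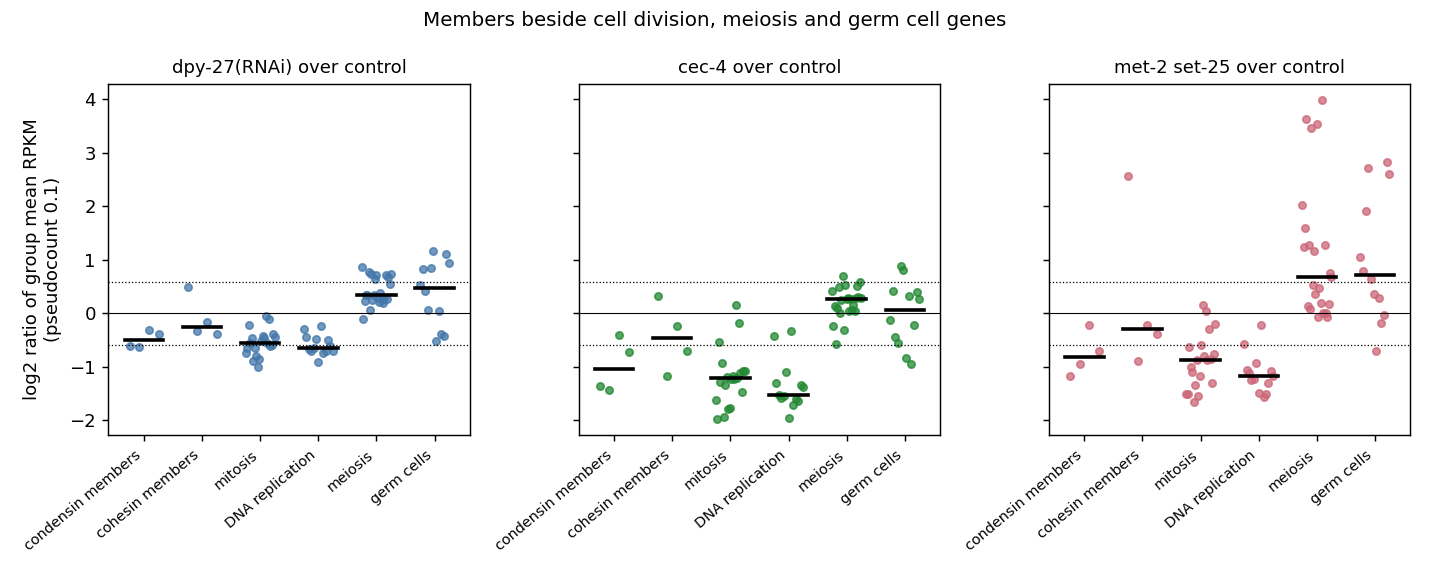
Log2 ratios to the control (pseudocount 0.1) of the 4 condensin and 4 cohesin members beside genes of mitosis, DNA replication, meiosis and germ cells, 1 panel per group; each point is a listed gene, with no filter on level, bars are medians and dotted lines mark 1.5-fold. The medians of mitosis and replication genes lie below 0, as do those of the condensin members, in the 3 panels, and in the double mutants meiosis genes reach 3.99.

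Genes of mitosis and DNA replication stood below the control together with the condensin members. Of 20 mitosis genes, 9 were lower past 1.5-fold in *dpy-27(RNAi)* larvae, 17 in *cec-4* mutants and 16 in the double mutants (medians -0.55, -1.21 and -0.88). Of all genes above 1 RPKM, 8.65%, 11.6% and 16.5% were lower in the same order. None of the 20 was higher, against 14%, 22.7% and 22.2%. Rescaled to the same sum, *plk-1* and *ndc-80* were no longer past 1.5-fold in *dpy-27(RNAi)* larvae, nor *bir-1*, *hcp-3* and *san-1* in the double mutants. Centred on the median of all genes, *bub-1* (-0.60) and *knl-1* (-0.60) also passed in *dpy-27(RNAi)* larvae, and *bir-1* (-0.67) in *cec-4* mutants. *cdk-1*, the mitotic kinase, had log2 ratios of -0.90, -1.94 and -1.66, and *air-2*, the Aurora B kinase, of -0.66, -1.98 and -1.52. *bir-1*, the survivin of the Aurora B complex, had ratios of -0.22, -0.54 and -0.62. *klp-7*, a kinesin, had ratios of -0.06, 0.16 and 0.04, its sign in the double mutants differing between scalings. The other mitosis genes not past 1.5-fold in the double mutants, named after their values were seen, were *hcp-4* (0.15), *spd-5* (-0.20) and *mdf-1* (-0.29).

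Of 13 DNA replication genes, 8 were lower in *dpy-27(RNAi)* larvae, against 8.65% of genes above 1 RPKM. In *cec-4* mutants 11 were lower, against 11.6%, and in the double mutants 11, against 16.5% (medians -0.64, -1.54 and -1.18 in the same order). *pcn-1*, the sliding clamp, was at 80.1 RPKM in *dpy-27(RNAi)* larvae, 41.1 RPKM in *cec-4* mutants and 45.1 RPKM in the double mutants, against 134 RPKM in the control, and *rnr-2*, of ribonucleotide reductase, had log2 ratios of -0.71, -1.38 and -1.18. In each comparison the medians of both lists were further below 0 than that of the 4 condensin members. The part of cell division as a whole in the lower condensin and cohesin means was not tested. The summed levels of 5 body wall muscle genes (2346, 3100 and 2814 RPKM, against 2083 RPKM in the control) and of 6 neuron genes (876, 1082 and 865 RPKM, against 739 RPKM in the control) were higher in each of the 3 groups. The muscle gene *unc-27* was not higher in *dpy-27(RNAi)* larvae (log2 ratio -0.19) or the double mutants (-0.26). Past 1.5-fold, 0, 3 and 2 of 5 muscle genes and 0, 1 and 2 of 6 neuron genes were higher in the same order. Of all genes above 1 RPKM, 14%, 22.7% and 22.2% were higher, so the neuron counts are near that background. The summed level of 6 epidermis genes was lower in each of the 3 groups (189, 228 and 233 RPKM, against 264 RPKM in the control). *grd-3* was the gene furthest below the control in that list, which was divided. Of its genes above 1 RPKM, 1 of 3 was above the control in *dpy-27(RNAi)* larvae (log2 ratio 0.004) and 1 of 3 in *cec-4* mutants (0.26). In the double mutants 2 of 4 were above the control, the higher at 0.32. The summed level of 5 intestine genes was 256, 264 and 302 RPKM, against 250.3 RPKM in the control.

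Many but not all germ cell genes stood above the control together with *rec-8* in the double mutants. Of 12 germ cell genes, with no filter on their level, 7 were higher past 1.5-fold and 1 was lower in the double mutants. Among all genes above 1 RPKM, 22.2% were higher and 16.5% lower, a background with a filter that this list does not have. Of the 9 germ cell genes above 1 RPKM in the control, 6 were higher and 0 lower. The shares of all genes under that filter were not computed, so these counts have no matched background. In *dpy-27(RNAi)* larvae 5 of 12 were higher, against 14%. In *cec-4* mutants 2 of 12 were higher and 2 lower, against 22.7% and 11.6%, which is near the background. Centred on the median of all genes, *glh-2* (0.57) did not pass in the double mutants. Their summed level over all 12 was 87.9 RPKM in *dpy-27(RNAi)* larvae, 71.5 RPKM in *cec-4* mutants and 272 RPKM in the double mutants, against 76.2 RPKM in the control. *glh-1*, a germ granule helicase, made up most of that sum in the double mutants, at 168 RPKM, against 25.5 RPKM in the control. *pgl-1*, a germ granule protein, was at 25 RPKM in the double mutants, against 3.45 RPKM in the control. *mes-3*, of a histone methyltransferase complex, stayed within 1.5-fold (0.04, 0.31 and 0.28). *nos-2* and *meg-1*, which are needed in primordial germ cells, are named here after their values were seen. Both were below 1 RPKM and not at 0 in all 4 groups. Their log2 ratios were below 0, at -0.42, -0.23 and -0.04 for *nos-2* and -0.51, -0.83 and -0.70 for *meg-1*. At levels this low the ratios depend on the pseudocount and were not read as a measure of primordial germ cells. *mes-4*, a histone methyltransferase also named after its values were seen, was likewise not above the control (-0.39, -0.96 and -0.18, the sign in the double mutants differing between scalings).

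Meiosis genes were divided in the double mutants. Of 23 listed genes, with no filter on their level, 12 were higher past 1.5-fold, against 22.2% of genes above 1 RPKM, and their median was 0.68. Of the 15 that were above 1 RPKM in the control, 7 were higher (median 0.52), a count with no matched background because no share of all genes was computed under that filter. *syp-1*, of the synaptonemal complex, was at 40.6 RPKM in the double mutants, against 2.47 RPKM in the control (log2 ratio 3.99), and *htp-3*, of the meiotic chromosome axis on which REC-8 lies, was at 13.6 RPKM, against 1.08 RPKM in the control (3.54). *him-3*, another axis gene, had a ratio of 3.45 and *dsb-2*, needed for meiotic breaks, of 3.62. *him-17* was near the control (0.07, its sign differing between scalings), and so were the synaptonemal complex genes *syp-2* (0.01) and *syp-4* (0.01), named after their values were seen, both with a sign that differs between scalings.

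In larvae labelled *dpy-27(RNAi)*, 8 of 23 meiosis genes were higher (median 0.34), against 14% of genes above 1 RPKM. Of the 15 above 1 RPKM in the control 3 were higher, again with no matched background. In *cec-4* mutants 2 of 23 were higher (median 0.27), against 22.7%, a share below the background. They were *him-8* and *zim-2*, whose ratios centred on the median of all genes (0.57 and 0.46) were not past 1.5-fold. Rescaled to the same sum, *htp-2* (0.62) and *zhp-3* (0.62) passed as well. The yolk, sperm and oocyte genes of the adult summed to 6.80 RPKM in *dpy-27(RNAi)* larvae, 6.44 RPKM in *cec-4* mutants and 7.38 RPKM in the double mutants, against 5.77 RPKM in the control. The part of germ cells in the higher *rec-8* mean of the double mutants was not tested.

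Likeness to the members was measured as the largest difference over the 3 ratios to the control from the median of the 4 condensin or the 4 cohesin genes, over 11616 genes with a mean above 5 RPKM. The genes nearest to the condensin median were *B0393.3*, *F35H10.5* and *gpa-4*, the 3 genes within 0.1 of it. The genes nearest to the cohesin median were *F40G9.17*, *pole-2* and *dpl-1*, of 47 within 0.1. The condensin and the cohesin members themselves spread around their medians by more than 0.1. The cohesin median includes *rec-8*, and the cohesin members ranged from -0.90 to 2.56 in the double mutants. These counts therefore depend on the tolerance and say nothing of how common the members' pattern is. The 3 ratios share the control mean.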

How the data were processed

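Libraries of 50-bp single-end reads were trimmed with Trim Galore and aligned by the authors to WS235 with TopHat2 2.0.13, allowing up to 20 hits per read. Expression was computed by the authors with Cufflinks 2.2.1, sharing out multi-reads, and deposited as the mean FPKM of each group over 3 or 4 libraries. FPKM is relative to all mapped reads, so a large change in some genes shifts the rest. The authors also deposited log2 fold changes and adjusted p-values from HTSeq 0.6.0 counts and DESeq2 1.6.3 in R 3.2.3; these are the authors' own comparisons and were not used here. Depth per library is not in the deposited values, and 0 columns held values of single libraries.

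Groups follow the sample titles. Log2 ratios used a pseudocount of 0.1 RPKM, a limit of 1.5-fold and genes with a mean above 1 RPKM in the 2 groups compared; no test was possible. Positions and exon overlaps came from Ensembl release 115 (WBcel235, the assembly of WS235), which held 45871 of 46170 gene IDs. *sep-1*, listed under a date, and *nse-1* were matched by gene ID. The members and gene lists were chosen with earlier results of these data known. All members, other subunits and regulators are named, and of each longer list the 2 genes with the highest mean and at most 4 genes past 1.5-fold; exceptions are marked. The arithmetic of ratios and calls was checked on simulated group means with set fold changes and no noise. That check says nothing of replicate spread or of genes near 1.5-fold. Python 3.11.15, numpy 2.4.6, pandas 2.3.3 and matplotlib 3.10.9 were used.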

Additional observations from a re-analysis of the deposited data

How the results depend on the processing

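No paired analysis was possible because each group has 1 column of means, so neither a block on replicate numbers nor leaving out a replicate could be run. With ratios centred on the median of all genes, the median of the 8 genes was -0.85 in *cec-4* mutants, and with groups rescaled to the same sum it was -0.60 in *cec-4* mutants, -0.35 in the double mutants and -0.0039 for the double mutants over *dpy-27(RNAi)* larvae. Without *rec-8* it was -0.70 in the double mutants and -0.31 for the double mutants over *dpy-27(RNAi)* larvae. Past a looser limit (25% higher, or the same fold lower) there were 6 of 8 genes in *dpy-27(RNAi)* larvae (5 lower, 1 higher). There were 3 for the double mutants over *dpy-27(RNAi)* larvae (2 lower, 1 higher) and 2 for the double mutants over *cec-4* mutants (0 lower, 2 higher). Past 2-fold there were 0 in *dpy-27(RNAi)* larvae, 3 in *cec-4* mutants (3 lower, 0 higher) and 2 in the double mutants (1 lower, 1 higher). For *cec-4* mutants over *dpy-27(RNAi)* larvae there were 0 past 2-fold. The shares of all genes past these looser and stricter limits were not computed, so these counts have no background. With a pseudocount of 1, 0 genes passed 1.5-fold in *dpy-27(RNAi)* larvae, since *hcp-6* (-0.56) and *capg-2* (-0.54) were just short. The other 52 alternative values for counts and medians stayed within 1.5 times or 0.1 of those above, and no member called past 1.5-fold changed sign.

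Rescaling the groups to the same sum moved ratios up by 0.12 in *cec-4* mutants and 0.20 in the double mutants before the pseudocount, and by less for genes near 0 RPKM. Counting meiosis and germ cell genes with no filter on level, or above 1 RPKM in the control only, was chosen after seeing the data. Of all genes called, 66.1% were higher in *cec-4* mutants as deposited, 52.3% when centred and 76.6% when rescaled. In the double mutants these shares were 57.4%, 51.0% and 72.7%. For *cec-4* mutants over *dpy-27(RNAi)* larvae they were 58.3%, 50.2% and 68.9%, and for the double mutants over *dpy-27(RNAi)* larvae 51.8%, 54.1% and 69.3%. With 1 mean per group and unknown depth, a difference carried by a single library cannot be seen.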
